A study of Mus musculus with 9 samples.

Results

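The genes described here are 36 of the Wnt and planar cell polarity signalling system, chosen by name out of 47729 genes measured in whole lenses of newborn mice. They comprise 6 secreted antagonists, 8 frizzled receptors, 2 LRP co-receptors, 5 genes of beta-catenin and its destruction complex, 3 dishevelled genes, 3 TCF/LEF transcription factors, 4 Wnt ligands and 5 genes of planar polarity. The rule names the genes and uses no measured value, although earlier results of these data were known when it was set. Each symbol matched 1 gene, and all 36 passed the filter on low counts.

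RNA-Seq was performed at P0 on *FVB/N* mice without a transgene, on hemizygous *P0-3.9GFPCre* mice and on hemizygous *Le-Cre* mice, all of the *FVB/N* strain. No floxed allele is named for any group, so the comparisons concern the transgenes themselves. Both transgenes are driven by fragments of the *Pax6* P0 promoter that are active in the lens placode, in the lens epithelium and in other surface ectoderm. *Le-Cre* makes CRE and GFP from separate reading frames, and *P0-3.9GFPCre* makes a GFP-CRE fusion protein. There were 3 pools a line, each of 6 lenses taken from 3 mice, so that the values describe pools and not single animals. Whole lenses contain a monolayer of epithelium and a much larger mass of fibre cells, which the libraries do not separate.

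In canonical Wnt signalling a secreted Wnt binds a frizzled receptor together with LRP5 or LRP6, dishevelled is recruited, and the destruction complex of APC, axin and GSK3B no longer marks beta-catenin for degradation. Beta-catenin then acts in the nucleus with TCF/LEF factors. In planar polarity signalling frizzled and dishevelled work with CELSR, VANGL and PRICKLE proteins to orient cells within a sheet. In the lens, beta-catenin signalling is known for its roles in keeping surface ectoderm from forming lens and in the epithelium, and polarity genes for the orderly orientation of elongating fibres.

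Pools held 20670968 to 28098059 expected counts, which are estimated numbers of reads per gene, and crystallin genes took 39.1% to 43.0% of them. The 36 genes together took 0.443% to 0.485%. Checked against the lens label, the summed markers of lens fibres lay between 169878 and 200240 CPM (counts per 1000000 after TMM normalization), and those of lens epithelium, between 600.5 and 727 CPM. Of the 6 markers of corneal and surface epithelium, *Krt12*, *Krt14* and *Trp63* were at 0 in every pool, and the list summed to at most 0.409 CPM. Macrophage markers summed to 1.02 to 3.50 CPM, mesenchyme markers to 8.14 to 13.7 CPM, retina markers to 5.65 to 13.2 CPM, pigment cell markers to 2.33 to 20.3 CPM, endothelial markers to 57.6 to 106 CPM and blood markers to 41.7 to 120 CPM. The Y-linked genes summed to 121 to 193 CPM in *FVB/N*, to 1.66 to 135 CPM in *P0-3.9GFPCre* and to 0.602 to 74.2 CPM in *Le-Cre*, so that the sex of the pooled animals was not balanced between the lines.

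The newborn lens expressed a small number of these genes at high level and most of them at low level. In *FVB/N* lenses, 25 of the 36 genes were at or above 1 TPM in every pool, where TPM is the number of transcripts in 1000000 after scaling for transcript length and so allows genes to be compared. The secreted antagonists held 56.2% of the summed TPM of the 36 genes, beta-catenin and its destruction complex 24.5%, the Wnt ligands 9.72%, the planar polarity genes 3.34%, the frizzled receptors 3.23%, the dishevelled genes 1.61%, the LRP co-receptors 0.986% and the TCF/LEF factors 0.402%. The order of levels was firm at the top and loose below it. From *Dkk3* through *Sfrp1*, *Ctnnb1*, *Wnt7b* and *Prickle1* to *Gsk3b*, no gene's 3 *FVB/N* pools overlapped those of the next on the TPM scale, whereas over the whole order the pools of 26 of 35 neighbouring pairs overlapped.

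**Figure D1:**
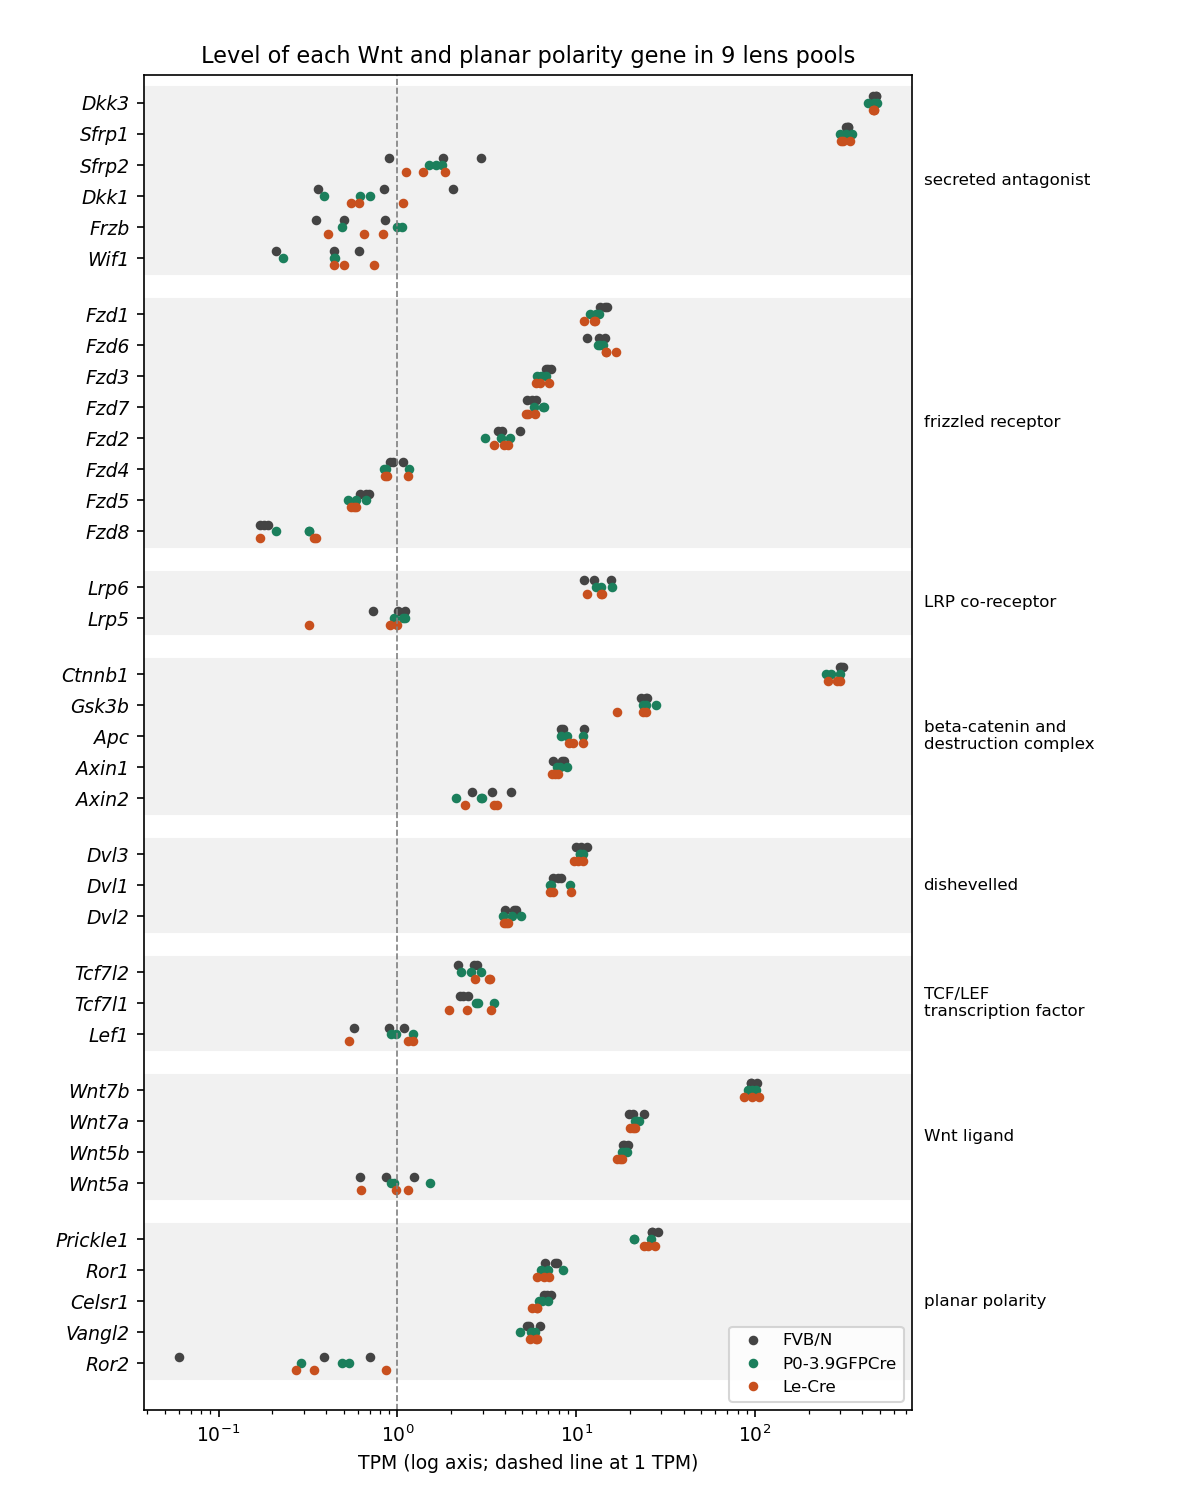
TPM of each of the 36 genes on a log axis, grouped by role, with 1 point for each of the 3 pools of *FVB/N* (grey), *P0-3.9GFPCre* (green) and *Le-Cre* (orange). *Dkk3*, *Sfrp1* and *Ctnnb1* stood at 248.9 TPM or more in every pool, while 11 genes fell below 1 TPM in at least 1 *FVB/N* pool.

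Among the secreted antagonists, 2 genes accounted for nearly all of the signal. *Dkk3* alone held 58.5% of the group's summed TPM in *FVB/N*, so the large share of this group rests mainly on that gene. Whether its product opposes Wnt signalling was not measured here. *Dkk3*, a divergent member of the Dickkopf family, was at 476, 475 and 457 TPM in the *FVB/N* pools and averaged 469.7 ± 10.8 TPM (SD, n = 3), which placed it 137th of all genes by *FVB/N* level. It is annotated on GRCm38 at chromosome 7, 112116017 to 112159057, minus strand. *Sfrp1*, a secreted frizzled-related protein that binds Wnts (chromosome 8, 23411502 to 23449632, plus strand), was at 332, 324 and 333 TPM and ranked 190th. The other antagonists were far lower. *Sfrp2* averaged 1.88 ± 1.02 TPM, *Dkk1*, which blocks the LRP co-receptors, 1.09 ± 0.876 TPM, *Frzb*, another frizzled-related Wnt binder, 0.567 ± 0.257 TPM, and *Wif1*, a further secreted Wnt binder, 0.420 ± 0.201 TPM (SD, n = 3 for each).

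Of the ligands, *Wnt7b* (chromosome 15, 85535437 to 85582473, minus strand) was at 95.4, 94.7 and 102.8 TPM in *FVB/N* and ranked 647th of all genes. *Wnt7a* followed at 21.5 ± 2.13 TPM and *Wnt5b*, a ligand mostly tied to signalling without beta-catenin, at 18.8 ± 0.620 TPM, and the pools of these 3 ligands did not overlap. *Wnt5a*, of the same class as *Wnt5b*, was at 0.907 ± 0.313 TPM (SD, n = 3). The 15 remaining Wnt genes of the mouse together reached 1.39 ± 0.122 TPM in *FVB/N*, none of them averaged 1 TPM, *Wnt9a* was highest at 0.520 TPM, and 5 were at 0 in all 9 pools. The ligand signal of these lenses thus came from 3 genes. Of the genes for Wnt secretion, *Wls*, the carrier of Wnts to the cell surface, was at 20.7 ± 2.53 TPM and *Porcn*, the acyltransferase that lipidates them, at 2.88 ± 0.339 TPM.

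The frizzled receptors were expressed at graded levels. *Fzd1* averaged 14.3 ± 0.728 TPM and *Fzd6* 13.2 ± 1.51 TPM in *FVB/N*, and the pools of *Fzd1* and *Fzd6* overlapped. *Fzd3*, which with *Fzd6* is known for planar polarity, was at 7.03 ± 0.228 TPM, *Fzd7* at 5.66 ± 0.320 TPM and *Fzd2* at 4.13 ± 0.640 TPM. *Fzd4* at 0.980 ± 0.0889 TPM, *Fzd5* at 0.660 ± 0.0361 TPM and *Fzd8* at 0.180 ± 0.0100 TPM were the lowest of the family, and each of the 8 receptors was detected in all 9 pools. Of the co-receptors, *Lrp6* averaged 13.1 ± 2.39 TPM and held 93.3% of the pair's summed TPM, against 0.950 ± 0.197 TPM for *Lrp5* (SD, n = 3 throughout).

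Inside the cell, *Ctnnb1*, which encodes beta-catenin and also serves in cadherin junctions, was at 299.6, 313 and 303 TPM in *FVB/N*. The genes of the complex that degrades its product were far lower: *Gsk3b*, the kinase, averaged 24.2 ± 1.02 TPM, *Apc* and *Axin1*, the scaffolds, 9.23 ± 1.57 TPM and 8.09 ± 0.579 TPM, and *Axin2*, a scaffold that is itself a widely used target gene of the pathway, 3.43 ± 0.842 TPM. The dishevelled genes, which relay the signal of the receptors, were within a narrow range, *Dvl3* at 10.7 ± 0.778 TPM, *Dvl1* at 7.85 ± 0.415 TPM and *Dvl2* at 4.37 ± 0.325 TPM. The TCF/LEF factors, the DNA-binding partners of beta-catenin, were the lowest group. *Tcf7l2* averaged 2.55 ± 0.323 TPM, *Tcf7l1* 2.35 ± 0.120 TPM and *Lef1* 0.853 ± 0.263 TPM, and the pools of *Tcf7l2* and *Tcf7l1* overlapped.

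Among the planar polarity genes, *Prickle1*, a cytoplasmic core component, was at 26.7, 26.7 and 28.6 TPM in *FVB/N* and held 57.3% of the group's summed TPM. *Ror1*, a receptor kinase for non-canonical Wnts, averaged 7.34 ± 0.598 TPM, *Celsr1*, the atypical cadherin that bridges neighbouring cells, 6.92 ± 0.317 TPM, and *Vangl2*, the membrane protein that opposes frizzled, 5.69 ± 0.524 TPM. *Ror2* was the exception at 0.383 ± 0.320 TPM (SD, n = 3). Of 15 further polarity genes, 10 averaged at least 1 TPM in *FVB/N*, and *Celsr2* was highest at 27.9 TPM.

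TPM depends on the transcript length that RSEM estimated in each pool, and for some genes that length varied. *Gsk3b* was at 17.0 TPM in *Le-Cre* replicate 1 and at 24.7 and 23.7 TPM in *Le-Cre* replicates 2 and 3, while its counts were 97.3, 105.7 and 96.5 CPM. The estimated effective length in those pools was 6103, 4855 and 4179 bases, so the pool with the low TPM had the longest estimated length. The largest ratio between pools was that of *Ror2*, whose length ranged from 1306 to 3929 bases. For genes such as *Fzd1*, *Fzd3*, *Celsr1*, *Dkk3* and *Sfrp1* the length was nearly the same in all pools. Differences between lines are therefore given below on the CPM scale, within one gene. The uncertainty that RSEM gives for the count of each gene was small. It does not cover the split of reads among transcripts of the same gene, since it was 0 for *Ror2*, whose estimated length varied most. RSEM's posterior standard deviation was at most 8.91% of the count for *Lef1*, 4.63% for *Lrp5*, 3.44% for *Dkk1* and 1.90% or less for the others.

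The first question was whether the RNA levels of these genes differed between lenses with and without either transgene. Effects of CRE, of GFP and of the rest of each transgene cannot be told apart in this design. By edgeR's quasi-likelihood test with the cutoff set at 1.5-fold and a Benjamini-Hochberg adjusted p of 0.05, 0 of the 36 genes passed between *Le-Cre* and *FVB/N*, where 10 of 15557 tested genes passed (0.0643%). Between *P0-3.9GFPCre* and *FVB/N* 0 of 36 passed, with 0 of all tested genes (0%), and directly between *Le-Cre* and *P0-3.9GFPCre* 0 of 36 passed, with 0 of all (0%). The lowest adjusted p among the 36 genes was 0.280 for *Le-Cre* against *FVB/N*, 0.590 for *P0-3.9GFPCre* against *FVB/N* and 0.535 for *Le-Cre* against *P0-3.9GFPCre*. DESeq2's Wald test, with and without a prior, also passed 0 of the 36 in each comparison. Since whole lenses were measured, fewer cells of a type and less RNA per cell cannot be told apart in any of these values. Both comparisons with *FVB/N* share the same 3 control pools.

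At an unadjusted p of at most 0.05, 4 of the 36 genes differed between *Le-Cre* and *FVB/N*, which is 11.1% against 7.94% of all tested genes. For *P0-3.9GFPCre* against *FVB/N* there were 5, or 13.9% against 6.81%, and for *Le-Cre* against *P0-3.9GFPCre* 1, or 2.78% against 7.88%. DESeq2 without a prior gave 3, 5 and 2 genes in the same order. With 36 genes, each of these counts rests on 1 to 5 genes. The 3 pools of one line did not overlap the 3 of the other for 7 of the 36 genes between *Le-Cre* and *FVB/N* (13.5% of all genes), for 8 between *P0-3.9GFPCre* and *FVB/N* (12%) and for 5 between the Cre lines (14.1%). An exact two-sided permutation test on 3 pools of each line has 0.1 as its smallest possible p.

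Most of the fold changes were small and below 0. Of the 36 genes, 28 had a log2 fold change below 0 in *Le-Cre* against *FVB/N*, where 51% of all tested genes did, with a median of -0.08 against -0.00 for all genes. In *P0-3.9GFPCre* against *FVB/N* 27 were below 0, against 50% of all genes, with a median of -0.08 against 0.00. In *Le-Cre* against *P0-3.9GFPCre* 17 were below 0, against 50.5% of all genes, with a median of 0.01 against -0.00. In the comparisons with *FVB/N*, all 5 genes of beta-catenin and the destruction complex were below 0 in both. Their log2 fold changes reached -0.15 in *Le-Cre* and -0.42 in *P0-3.9GFPCre*, both for *Axin2*. None of the 3 TCF/LEF genes was below 0 in *Le-Cre*, and 1 was in *P0-3.9GFPCre*. The larger mean was less than 25% above the smaller for 28 genes in *Le-Cre* and for 29 in *P0-3.9GFPCre*. The standard errors of the log2 fold changes ran from 0.05 for *Ctnnb1* to 0.55 and 0.56 for *Dkk1*, with a median of 0.10 in each comparison.

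**Figure D2:**
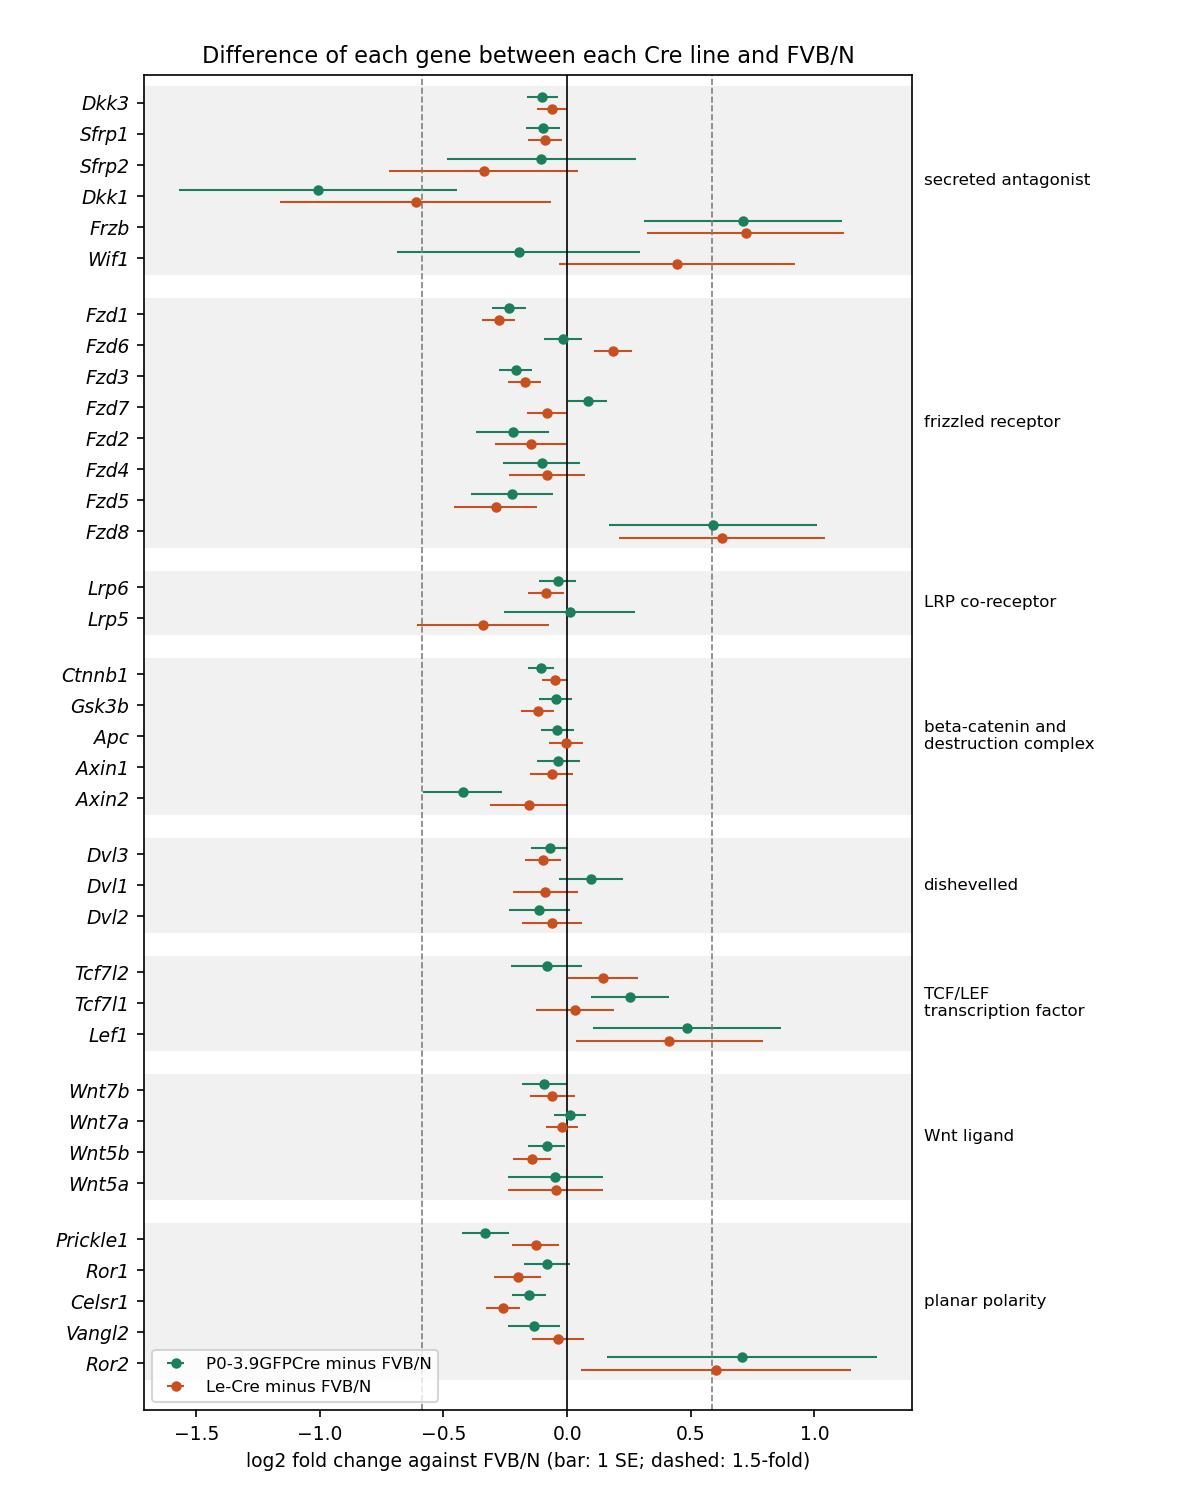
Log2 fold change of each of the 36 genes in *P0-3.9GFPCre* (green) and *Le-Cre* (orange) lenses relative to *FVB/N*, with bars of 1 standard error from the edgeR fit and dashed lines at 1.5-fold. *Dkk3*, *Sfrp1*, *Ctnnb1* and *Wnt7b* lie close to 0, whereas *Fzd1*, *Fzd3* and *Celsr1* lie below it in both lines. The points beyond the dashed lines belong to *Dkk1*, *Frzb*, *Fzd8* and *Ror2*, genes of low count with wide bars.

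*Fzd1*, the most highly expressed frizzled gene in *FVB/N* by mean TPM, had the lowest adjusted p of the 36 genes in *Le-Cre* against *FVB/N*, and shared the lowest with *Prickle1* in *P0-3.9GFPCre* against *FVB/N*. It lies on chromosome 5 at 4753839 to 4758035, minus strand. Its 3 *FVB/N* pools were at 57.3, 57.5 and 55.4 CPM, its *P0-3.9GFPCre* pools at 47.5, 51.1 and 46.1 CPM and its *Le-Cre* pools at 49.4, 46.6 and 44.5 CPM. All 6 pools with a transgene lay below all 3 without one, also on the TPM scale, while the Cre lines overlapped each other. The log2 fold change was -0.28 (SE 0.07, adjusted p = 0.280) in *Le-Cre* and -0.23 (SE 0.07, adjusted p = 0.590) in *P0-3.9GFPCre* by edgeR, and the difference between the Cre lines was -0.04 (SE 0.07, adjusted p = 0.923).

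*Celsr1* showed a similar order. Its pools were at 71.8, 74.2 and 72.1 CPM in *FVB/N*, at 62.9, 70.3 and 62.9 CPM in *P0-3.9GFPCre* and at 58.9, 58.4 and 64.8 CPM in *Le-Cre*. Each Cre line lay wholly below *FVB/N* on this scale, and on the TPM scale only *Le-Cre* did. In *Le-Cre* against *FVB/N* the difference on the log2 scale was -0.26 (SE 0.07, adjusted p = 0.321), with -0.15 (SE 0.07, adjusted p = 0.722) in *P0-3.9GFPCre* and -0.11 (SE 0.07, adjusted p = 0.757) between the Cre lines.

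*Fzd3* was at 28.3, 26.7 and 27.7 CPM in *FVB/N*, at 24.7, 24.0 and 23.0 CPM in *P0-3.9GFPCre* and at 24.2, 25.4 and 23.9 CPM in *Le-Cre*. Here too the pools of both Cre lines lay below those of *FVB/N*, although on the TPM scale *Le-Cre* replicate 2, at 7.02 TPM, was within the *FVB/N* range. By edgeR the log2 fold change was -0.17 (SE 0.07, adjusted p = 0.581) in *Le-Cre*, -0.21 (SE 0.07, adjusted p = 0.637) in *P0-3.9GFPCre* and 0.04 (SE 0.07, adjusted p = 0.937) between the Cre lines.

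Summed lens markers also stood lower in *Le-Cre* than in *FVB/N*, whereas those of *P0-3.9GFPCre* overlapped *FVB/N*. The summed markers of lens epithelium reached 697, 718 and 727 CPM in *FVB/N*, 665, 700.0 and 613 CPM in *P0-3.9GFPCre* and 643, 637 and 600.5 CPM in *Le-Cre*. All *Le-Cre* pools lay below *FVB/N*, while *P0-3.9GFPCre* replicate 2 lay within the *FVB/N* range. The lens fibre sum was 189979 to 198347 CPM in *FVB/N*, 169878 to 200240 CPM in *P0-3.9GFPCre* and 184541 to 188872 CPM in *Le-Cre*, so that the *Le-Cre* pools were below *FVB/N* for fibre markers as well. Of the 8 genes in the epithelium list, 4 had all *Le-Cre* pools below all *FVB/N* pools, 1 had them above and 3 overlapped, where 13.5% of all tested genes were apart in either direction. For *P0-3.9GFPCre* these numbers were 3, 0 and 5, where 12% of all tested genes were apart. No gene of the list passed the cutoff in any comparison, and *Pdgfra* came nearest with an adjusted p of 0.169 in *Le-Cre* by edgeR. The part of these markers in the values of *Fzd1*, *Celsr1* and *Fzd3* was not tested. With the log2 of the Y-linked share of each pool as a covariate, the log2 fold change in *Le-Cre* was -0.23 for *Fzd1*, -0.26 for *Celsr1* and -0.11 for *Fzd3*. In that fit the lowest adjusted p of the 36 genes in *Le-Cre* against *FVB/N* was 0.951 by edgeR.

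*Prickle1* (chromosome 15, 93499114 to 93595891, minus strand) differed most in *P0-3.9GFPCre*. Its pools were at 102.6, 100.3 and 114 CPM in *FVB/N*, at 93.8, 79.0 and 79.5 CPM in *P0-3.9GFPCre* and at 104.5, 85.9 and 100.1 CPM in *Le-Cre*. The *P0-3.9GFPCre* pools lay below all *FVB/N* pools, whereas *Le-Cre* overlapped both other lines. The log2 fold change was -0.33 (SE 0.09, adjusted p = 0.590) in *P0-3.9GFPCre*, -0.13 (SE 0.09, adjusted p = 0.806) in *Le-Cre* and 0.20 (SE 0.09, adjusted p = 0.653) between the Cre lines by edgeR.

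*Axin2*, a widely used target gene of the pathway, was at 7.19, 9.46 and 8.64 CPM in *FVB/N*. Its pools were at 5.39, 7.22 and 6.28 CPM in *P0-3.9GFPCre* and at 8.72, 7.41 and 6.56 CPM in *Le-Cre*. The highest *P0-3.9GFPCre* pool just exceeded the lowest *FVB/N* pool, so no 2 lines were apart. By edgeR, *Axin2* had a log2 fold change of -0.42 (SE 0.16, adjusted p = 0.662) in *P0-3.9GFPCre*, -0.15 (SE 0.16, adjusted p = 0.866) in *Le-Cre* and 0.27 (SE 0.16, adjusted p = 0.730) between the Cre lines.

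*Fzd6* was the only frizzled gene whose *Le-Cre* pools all lay above those of both other lines. It was at 55.6, 50.2 and 46.0 CPM in *FVB/N*, at 48.6, 49.0 and 52.5 CPM in *P0-3.9GFPCre* and at 55.8, 59.6 and 57.4 CPM in *Le-Cre*. The lowest *Le-Cre* pool was above the highest pool of either other line, but exceeded *FVB/N* replicate 1 by a small margin. The log2 fold change was 0.19 (SE 0.08, adjusted p = 0.591) in *Le-Cre*, -0.02 (SE 0.08, adjusted p = 0.982) in *P0-3.9GFPCre* and 0.20 (SE 0.08, adjusted p = 0.535) between the Cre lines, the lowest adjusted p of the 36 genes in the direct comparison by edgeR.

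**Figure D3:**
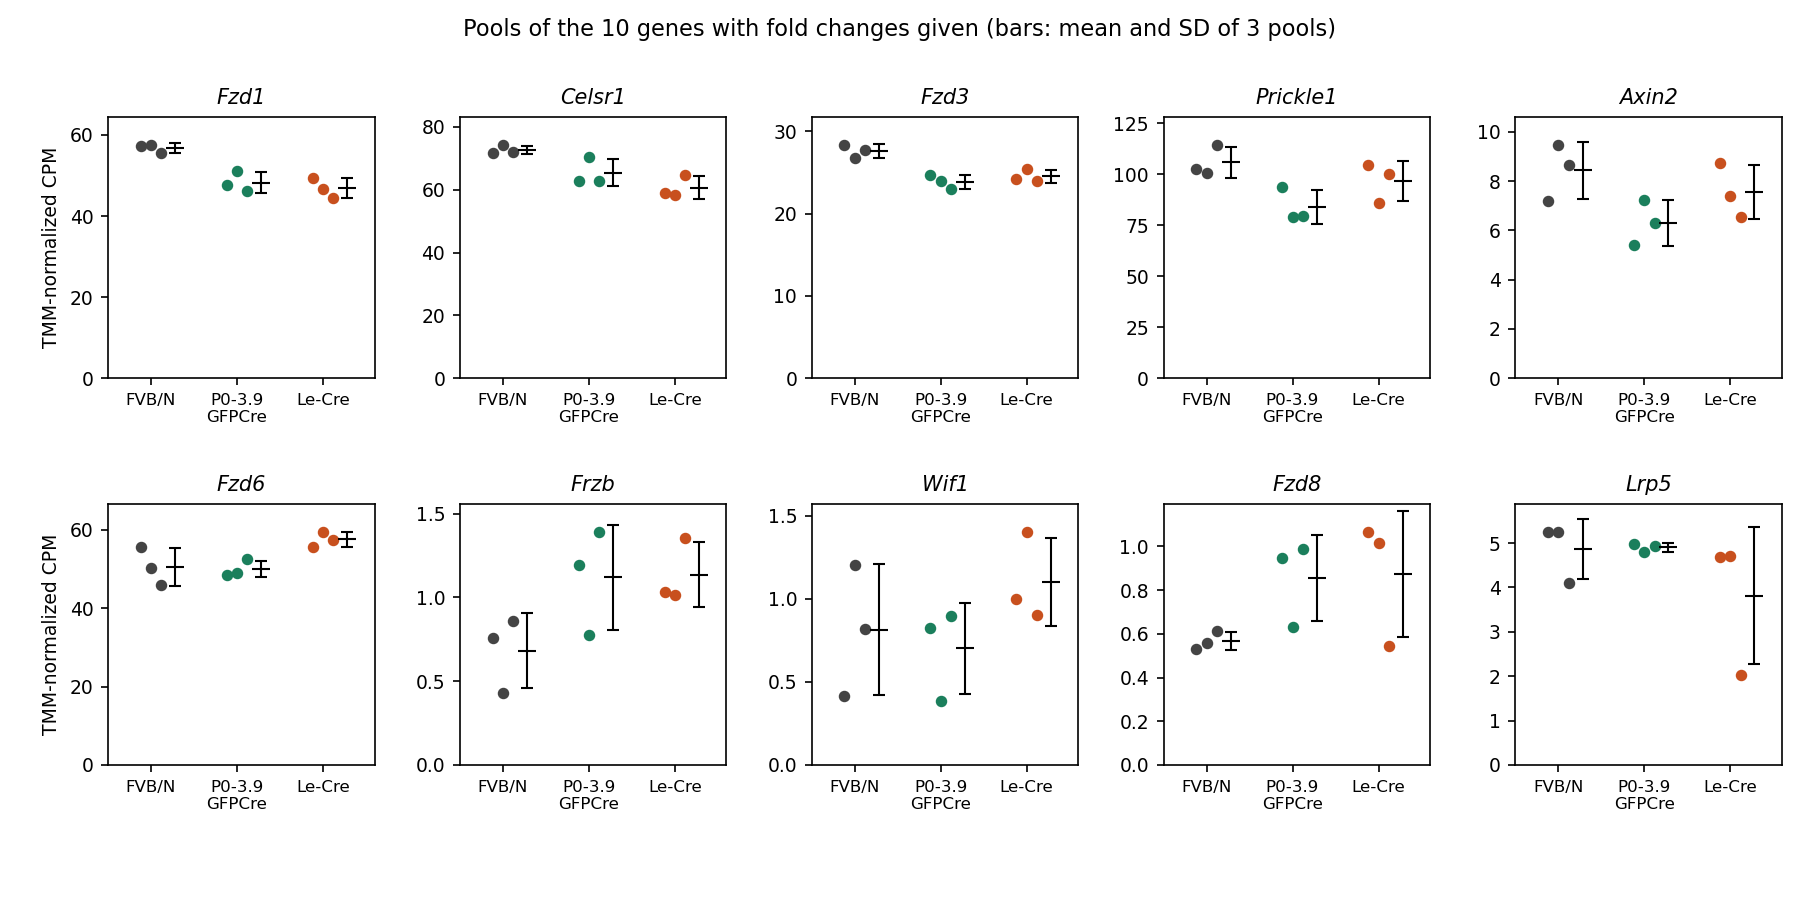
TMM-normalized CPM, from 0, of the 10 genes with fold changes given, with 1 point per pool and the mean and SD of the 3 pools of each line beside them. The *FVB/N* points of *Fzd1*, *Celsr1* and *Fzd3* stand above those of both Cre lines, the *Le-Cre* points of *Fzd6* stand above the others, and the lower row shows how widely the pools of *Frzb*, *Wif1*, *Fzd8* and *Lrp5* spread.

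The remaining genes with pools apart and the larger mean at least 25% above the smaller were all low. *Frzb* was at 0.756, 0.430 and 0.860 CPM in *FVB/N*, at 1.19, 0.775 and 1.39 CPM in *P0-3.9GFPCre* and at 1.03, 1.01 and 1.36 CPM in *Le-Cre*. Only *Le-Cre* lay wholly above *FVB/N* on this scale, and on the TPM scale it overlapped *FVB/N*. The values of *Frzb* rest on 10 to 31 counts. By edgeR, *Frzb* had a log2 fold change of 0.72 (SE 0.40, adjusted p = 0.719) in *Le-Cre*, 0.71 (SE 0.40, adjusted p = 0.789) in *P0-3.9GFPCre* and 0.01 (SE 0.39, adjusted p = 0.998) between the Cre lines.

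*Fzd8* was at 0.529, 0.559 and 0.614 CPM in *FVB/N*, at 0.946, 0.630 and 0.988 CPM in *P0-3.9GFPCre* and at 1.07, 1.01 and 0.543 CPM in *Le-Cre*. The *P0-3.9GFPCre* pools lay above *FVB/N* and *Le-Cre* replicate 3 did not. By edgeR, *Fzd8* had a log2 fold change of 0.59 (SE 0.42, adjusted p = 0.830) in *P0-3.9GFPCre*, 0.63 (SE 0.42, adjusted p = 0.777) in *Le-Cre* and 0.04 (SE 0.41, adjusted p = 0.990) between the Cre lines, from 12 to 30 counts a pool.

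*Wif1* was at 0.416, 1.20 and 0.819 CPM in *FVB/N*, at 0.823, 0.388 and 0.898 CPM in *P0-3.9GFPCre* and at 0.996, 1.40 and 0.905 CPM in *Le-Cre*. The Cre lines were just apart on this scale, though not on the TPM scale, and both overlapped *FVB/N*. By edgeR, *Wif1* had a log2 fold change of 0.44 (SE 0.48, adjusted p = 0.875) in *Le-Cre*, -0.20 (SE 0.49, adjusted p = 0.961) in *P0-3.9GFPCre* and 0.64 (SE 0.48, adjusted p = 0.790) between the Cre lines.

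*Lrp5* was decided by 1 pool. It was at 5.26, 5.25 and 4.09 CPM in *FVB/N*, at 4.98, 4.80 and 4.94 CPM in *P0-3.9GFPCre* and at 4.70, 4.72 and 2.04 CPM in *Le-Cre*. The log2 fold change in *Le-Cre* was -0.34 (SE 0.27, adjusted p = 0.816), and without *Le-Cre* replicate 3 it was -0.05. In *P0-3.9GFPCre* it was 0.01 (SE 0.27, adjusted p = 0.997), and between the Cre lines -0.35 (SE 0.27, adjusted p = 0.793) by edgeR. The *Le-Cre* pools lay below those of *P0-3.9GFPCre* on the CPM scale, but overlapped them on the TPM scale. With the Y-linked covariate the value in *Le-Cre* against *FVB/N* was -0.09.

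Some low genes varied as much among pools of one line as between lines. Over the 10 genes with a mean under 5 CPM the coefficient of variation among the pools of each line had a median of 27.3%, and over the other 26 genes a median of 5.78%. *Dkk1* was at 0.794, 1.85 and 4.83 CPM in *FVB/N*, the highest and the lowest of all 9 pools both being *FVB/N*, and between 0.823 and 2.26 CPM in the Cre lines. *Sfrp2* was at 3.33, 4.26 and 1.27 CPM in *FVB/N*, *Ror2* at 0.870, 1.38 and 0.205 CPM and *Lef1* at 2.46, 2.84 and 1.02 CPM.

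In *FVB/N*, *Sfrp2*, *Ror2* and *Lef1* were each highest in replicate 2 and lowest in replicate 3. The markers of pigment epithelium and melanocytes had the same order there, with sums of 4.77, 20.3 and 2.33 CPM, and those of retina stood at 8.02, 8.65 and 7.17 CPM. Blood markers, at 50.7, 88.9 and 45.0 CPM, and macrophage markers, at 1.48, 2.49 and 1.15 CPM, had that order in *FVB/N* too. Endothelial markers, at 85.1, 87.9 and 106 CPM, and mesenchyme markers, at 9.38, 11.7 and 12.7 CPM, were highest in replicate 3. In *Le-Cre*, *Sfrp2* was at 2.06, 3.16 and 1.76 CPM and *Ror2* at 1.245, 1.56 and 0.905 CPM, beside pigment cell sums of 6.87, 11.0 and 3.30 CPM and retina sums of 7.44, 13.2 and 5.65 CPM. In *P0-3.9GFPCre*, *Ror2* was at 1.28, 1.74 and 0.988 CPM beside pigment cell sums of 8.39, 9.54 and 3.55 CPM, whereas *Sfrp2* at 2.84, 2.42 and 2.96 CPM and *Lef1* at 2.92, 2.23 and 3.68 CPM were lowest in the pool with the highest pigment cell sum. *Lef1* in *Le-Cre* was at 3.31, 3.32 and 1.76 CPM. *Rpe65* and *Ttr*, the pigment epithelium genes of that list, were at 0 or nearly so in every pool. The part of other ocular tissue or of blood in the levels of these genes was not tested.

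**Figure D4:**
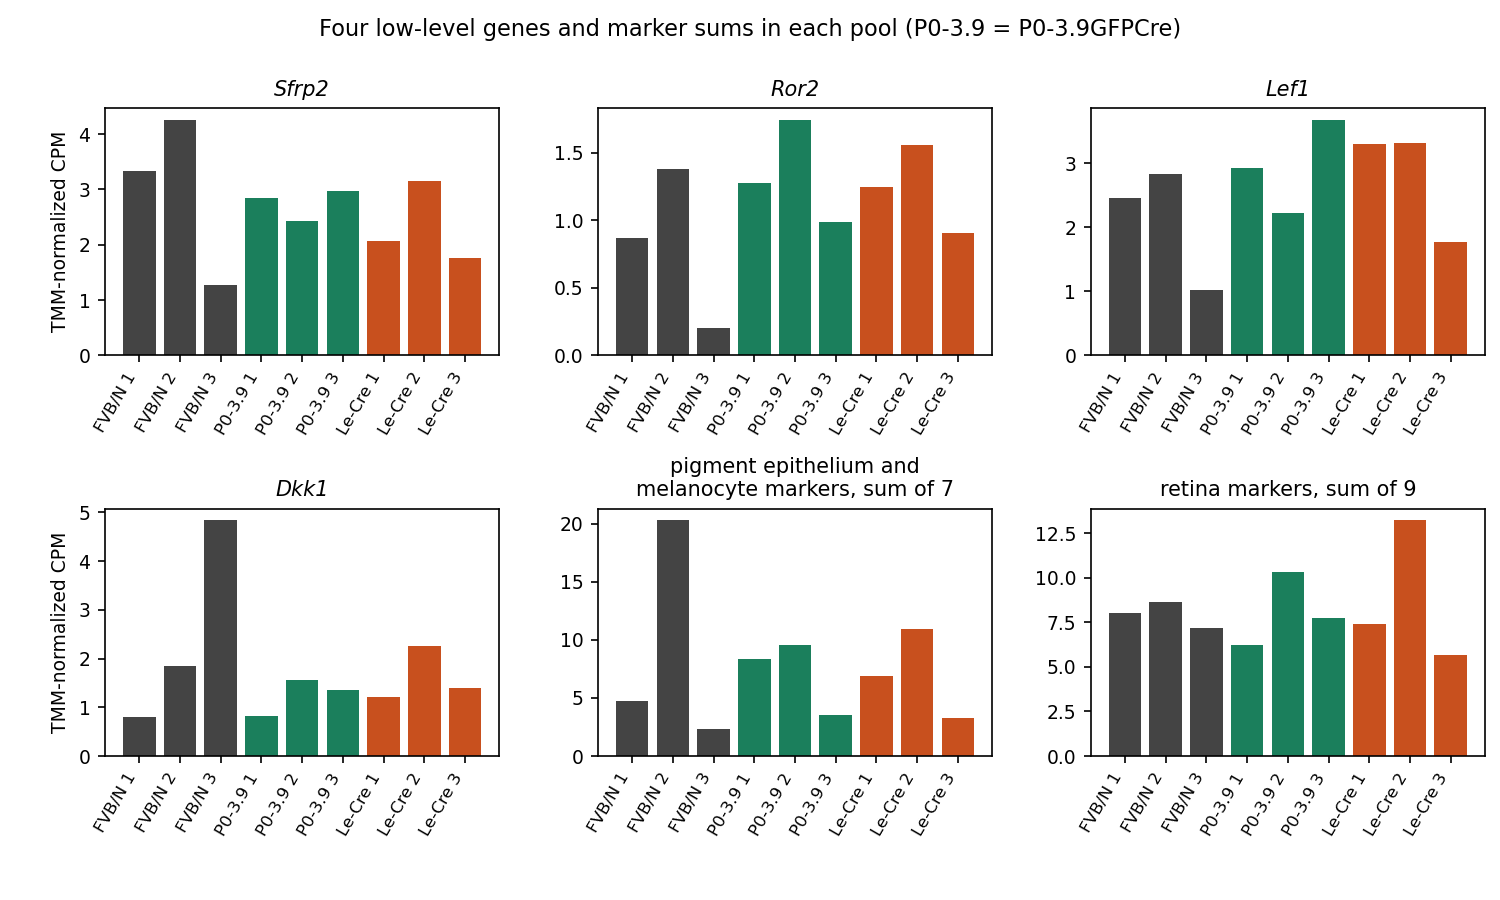
TMM-normalized CPM of *Sfrp2*, *Ror2*, *Lef1* and *Dkk1* and the summed CPM of 7 pigment cell markers and 9 retina markers in each of the 9 pools, as bars from 0. *FVB/N* replicate 3 is low for *Sfrp2*, *Ror2* and *Lef1* and high for *Dkk1*, and the pigment cell sum is highest, at 20.3 CPM, in *FVB/N* replicate 2.

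The 4 genes of highest mean TPM in *FVB/N*, *Dkk3*, *Sfrp1*, *Ctnnb1* and *Wnt7b*, differed little between lines. *Dkk3* was at 1493, 1462 and 1495 CPM in *FVB/N*, at 1366, 1469 and 1318 CPM in *P0-3.9GFPCre* and at 1438, 1359 and 1468 CPM in *Le-Cre*, and the lines overlapped. *Sfrp1* was at 1361, 1303 and 1422 CPM in *FVB/N*, at 1244, 1381 and 1194 CPM in *P0-3.9GFPCre* and at 1231, 1298 and 1316 CPM in *Le-Cre*. *Wnt7b* was at 302, 294 and 339 CPM in *FVB/N*, at 298, 296 and 283 CPM in *P0-3.9GFPCre* and at 329, 256 and 313 CPM in *Le-Cre*. For these 3 genes the log2 fold changes against *FVB/N* lay between -0.10 and -0.06 with standard errors of 0.06 to 0.09. *Ctnnb1* was at 893, 846 and 878 CPM in *FVB/N* and at 812, 828 and 792 CPM in *P0-3.9GFPCre*, where its pools lay below those of *FVB/N* (log2 fold change -0.11). On the TPM scale these pools overlapped. In *Le-Cre* it was at 854, 830.2 and 845 CPM.

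The proximal promoters of 23 of the 36 genes are given by RefSeq on GRCm38.p6, with 31 start sites in all. The 250 bases before each start were searched on both strands for the core of TCF/LEF binding sites, spelled CTTTG followed by AA, AT, TA or TT, which share no match. At least 1 match stood before 5 of the 31 starts (16.1%), against 14.8% of all 32851 promoters. *Fzd1*, *Prickle1* and *Axin2*, the 3 genes above 5 CPM with the largest log2 fold changes in these data, had none of these letters in the window. Their upstream sequences are shown to let a reader see the start regions of those genes, 5′ to 3′ on the gene's strand and ending at the base before the start, with no base in capitals since no match was found.
Fzd1, chr5:4758217-4758466, minus strand: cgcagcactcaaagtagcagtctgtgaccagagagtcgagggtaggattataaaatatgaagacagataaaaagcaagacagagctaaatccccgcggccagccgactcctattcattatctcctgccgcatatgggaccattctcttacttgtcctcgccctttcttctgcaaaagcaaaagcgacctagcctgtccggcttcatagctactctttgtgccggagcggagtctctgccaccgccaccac
Prickle1, chr15:93595903-93596152, minus strand: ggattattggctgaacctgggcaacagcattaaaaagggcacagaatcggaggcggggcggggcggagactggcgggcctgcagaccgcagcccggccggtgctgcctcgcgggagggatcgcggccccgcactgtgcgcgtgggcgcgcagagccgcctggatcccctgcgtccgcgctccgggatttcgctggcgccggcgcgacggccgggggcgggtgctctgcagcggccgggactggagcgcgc
Axin2, chr11:108920099-108920348, plus strand: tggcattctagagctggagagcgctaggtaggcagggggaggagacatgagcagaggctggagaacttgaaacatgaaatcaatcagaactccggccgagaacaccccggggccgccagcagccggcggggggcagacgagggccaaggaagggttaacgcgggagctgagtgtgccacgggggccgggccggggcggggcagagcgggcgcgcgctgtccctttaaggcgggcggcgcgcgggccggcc

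The 5 genes with a match were *Dkk1*, *Fzd7*, *Lef1*, *Tcf7l2* and *Wnt5b*. Shown as examples, chosen after the matches were seen, are *Dkk1*, the gene that varied most among *FVB/N* pools and the one gene with a pair of matches, and *Fzd7*, which was at 22.7, 23.7 and 26.5 CPM in *FVB/N*. They are printed with the matched letters in capitals. The pair before *Dkk1* lies inside the span that GENCODE gives that gene, while the match before *Fzd7*, on the opposite strand to the gene, lies outside its span. A match is a run of letters and no evidence of binding.
Dkk1, chr19:30549588-30549613, minus strand: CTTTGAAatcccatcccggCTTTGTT
Fzd7, chr1:59482007-59482033, plus strand: ccacagagaaAACAAAGcgcgctattg

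Other genes of the pathway were examined in the same fit. Of 84 further genes, 59 were tested, and 0 passed the cutoff in any comparison. At an unadjusted p of at most 0.05 there were 2 higher and 8 lower in *Le-Cre* against *FVB/N*, which is 16.9% of those tested against 7.94% of all tested genes. There were 1 higher and 2 lower in *P0-3.9GFPCre* against *FVB/N* (5.08% against 6.81%), and 3 higher and 3 lower in *Le-Cre* against *P0-3.9GFPCre* (10.2% against 7.88%). The medians of the 59 log2 fold changes were -0.05, 0.00 and -0.04 in this order.

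In *Le-Cre* against *FVB/N* the genes with the lowest p were *Cd44*, a target gene and adhesion receptor, with a log2 fold change of 0.36, *Fat4*, a protocadherin of planar polarity, with -0.28, *Apc2*, an APC homologue, with -0.53, *Lgr4*, a receptor for R-spondins, with -0.23, *Tcf7*, the remaining TCF/LEF factor, with 0.32, and *Tle3*, a co-repressor, with -0.17. Their adjusted p ran from 0.389 to 0.586 by edgeR. In *P0-3.9GFPCre* they were *Fat4* with -0.25, *Tcf7* with 0.30 and *Wls* with -0.23, at adjusted p of 0.651 to 0.674. *Fat4* and *Tcf7* thus lay on the same side of *FVB/N* in both Cre lines, which share the control pools. Between the Cre lines they were *Ctnnbip1*, an inhibitor of beta-catenin, with -0.50, *Cd44* with 0.28, and *Kremen2* and *Kremen1*, receptors for Dickkopf proteins, with 1.32 and -0.20. The others were the casein kinase genes *Csnk1a1* with 0.13 and *Csnk1d* with -0.16. None of these passed the cutoff, and *Kremen2* averaged only 0.821 CPM in *Le-Cre* and 0.327 CPM in *P0-3.9GFPCre*.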

How the data were processed

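RNA was measured in 9 pools of newborn lenses, 3 for each of *FVB/N*, *P0-3.9GFPCre* and *Le-Cre*, grouped by the genotype and strain in the labels. The authors purified polyadenylated RNA of high integrity, sequenced it single-end, trimmed them with Trimmomatic 0.36, mapped them to GRCm38 and quantified genes with RSEM 1.3.0. The deposited values are expected counts, that is, estimated counts of reads per gene without normalization, and the authors' TPM, which RSEM scales for effective transcript length and library size. The annotation behind them is not given in the sources used here, and coordinates are those of GENCODE M21 for GRCm38.

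Here expected counts were rounded to whole numbers. edgeR 4.0.16 in R 4.3.3 was used with TMM normalization, filterByExpr at its defaults, 1 coefficient per line over all 9 pools, glmQLFit, glmQLFTest and Benjamini-Hochberg adjustment over 15557 genes. Standard errors were derived from the fold change and its F statistic. The cutoff was 1.5-fold at an adjusted p of 0.05. CPM was scaled by TMM. Levels were compared between genes by TPM only. The fit was tested on simulated counts with known changes. Depth was 20670968 to 28098059 expected counts a pool.

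The labels do not say which animals or litters a pool came from beyond 6 lenses of 3 mice, so p-values measure the spread between pools. Replicate numbers come from the titles, and for 1 *FVB/N* pool the description carries another number. The members, the lists of further pathway genes and of markers and the tests were chosen with earlier results of these data known. A fold change was given for members past the cutoff or with an unadjusted p of at most 0.05 in any comparison, or with the pools of 2 lines apart and the larger mean at least 25% above the smaller. Further pathway genes were named at an unadjusted p of at most 0.05, at most 6 a comparison. Alternatives changed the normalization, the filter, the test (DESeq2 1.42.0), the pools, the covariates and the cutoff. CRE transcripts were not analysed here.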

Additional observations from a re-analysis of the deposited data

How the results depend on the processing

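No alternative brought any of the 36 genes past the cutoff in any comparison, including DESeq2, the fit without a filter and the fits that each left out 1 pool. The lowest adjusted p of a member over all alternatives was 0.0873 in *Le-Cre* against *FVB/N*, 0.0662 in *P0-3.9GFPCre* against *FVB/N* and 0.441 between the Cre lines. The number of members at an unadjusted p of at most 0.05 ranged from 3 to 5, from 3 to 6 and from 0 to 2 in that order, and the number with a log2 fold change below 0 from 24 to 28, from 24 to 28 and from 17 to 20. No alternative moved the median of all genes by more than 0.01. Each normalization used centres the bulk of the genes near 0, so that median could hardly move. Of 540 recomputed fold changes of the 10 genes, 528 kept their direction and 12 turned, all in values near 0 or of low genes.

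The count over all genes depended on the settings, and the cause was not tested. For *Le-Cre* against *FVB/N*, 10 genes passed, against 131 without a filter, 5 with a mean of at least 10 counts, 2 with the replicate block, 0 with the Y-linked covariate, 49 by DESeq2 without a prior, and 0 to 10 when 1 pool was left out. For *P0-3.9GFPCre* against *FVB/N*, 0 passed, against 93 without a filter, 11 by DESeq2 without a prior, 1 with it, and 0 to 14 when 1 pool was left out. For *Le-Cre* against *P0-3.9GFPCre*, 0 passed, against 123 without a filter, 31 with only the 2 lines in the fit, 32 by DESeq2 without a prior, 4 with it, and 0 to 18 when 1 pool was left out. In the first comparison 0 or 1 passed without any single *FVB/N* or *Le-Cre* pool. The 14 and the 18 were reached without *FVB/N* replicate 2, and in the second comparison 3 genes passed when *P0-3.9GFPCre* replicate 2 was dropped and 1 when *FVB/N* replicate 3 was.

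Directions turned between the Cre lines for *Frzb* with the Y-linked covariate (log2 fold change -0.16). When 1 pool was left out, the log2 fold change ranged from -0.19 to 0.20 for *Frzb* and from -0.14 to 0.28 for *Fzd8* between the Cre lines, and against *FVB/N* in *P0-3.9GFPCre* from -0.51 to 0.20 for *Wif1*, from -0.081 to 0.057 for *Fzd6* and from -0.099 to 0.071 for *Lrp5*. In *Le-Cre* against *FVB/N*, *Wif1* was at 0.13 without *FVB/N* replicate 1 and at 0.24 without *Le-Cre* replicate 2.

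With the replicate number as a block, 0 members passed in any comparison, 3, 4 and 2 had an unadjusted p of at most 0.05, and *Fzd1* was at -0.28 in *Le-Cre* and -0.24 in *P0-3.9GFPCre*. The numbers were not used as pairs: deviations from the line means correlated at 0.031 on average (-0.15 to 0.143, 9 pairs) between pools of the same number and at -0.0155 between others. Standard errors of the members had a median of 0.10 on the log2 scale and reached 0.57 for *Dkk1*, which limits what 3 pools a line can show for the low genes.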
